A study of Caenorhabditis elegans with 2 samples.

Results

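The srh genes are a family of Caenorhabditis elegans chemoreceptor genes, and the peaks of the transcription factor MDL-1 in and around them were examined in first-stage (L1) larvae. Members were the protein-coding genes of the WBcel235 annotation whose symbol is srh followed by a number, 220 of 19973 protein-coding genes. They carry 218 symbols, because srh-57 and srh-228 each name 2 gene records that lie close together on opposite strands. Of the members, 180 lie on chromosome V, 27 on II, 7 on IV, 3 on I, 2 on X and 1 on III. The study precipitated eGFP-tagged MDL-1 from whole animals of strain OP106, a stock with the unc-119(ed3) III allele and the integrated array wgIs106 that supplies the tagged mdl-1, in a population of both sexes. There was 1 group of 2 biological replicates and no other genotype or treatment to compare it with. Chromatin immunoprecipitation was followed by sequencing (ChIP-seq), and the deposited result is a set of peak lists, without read counts, so that depth is unknown. The stricter of the lists used here kept the 3870 peaks that passed the authors' irreproducible discovery rate (IDR) step, and the relaxed lists of the pooled replicates and of each replicate held 30000 peaks each.

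The srh genes encode G protein-coupled receptors of the Str superfamily, together with the str, srd, sri, srj, srm and srn families. Such receptors sit in the cilia of sensory neurons, many in only one or a few neuron types, and they pass odours and other chemical cues to G proteins. MDL-1 is related to the vertebrate MAD proteins, and with its partner MXL-1 it binds a DNA element called the E-box, CACGTG. A related E-box with the core CACCTG or CACGTG is known upstream of many chemoreceptor genes used by the ADL sensory neurons, where the helix-loop-helix factor HLH-4 acts on them. In whole larvae, binding in a few neurons and no binding cannot be told apart.

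MDL-1 peaks were sparse at srh promoters. An IDR summit, the point of highest signal in a peak, fell between 1000 bp upstream and 200 bp downstream of the 5' end of 7 members, or 3.18% (exact 95% interval 1.29% to 6.45%), against 12.8% of all protein-coding genes. These 7 genes were srh-17, srh-2, srh-16, srh-89, srh-282, srh-76 and srh-269. Another gene's 5' end lay nearer to the summit at 3 of them, and an RNA gene lay nearer at 1 more. None of the 7 summits had CACGTG or CACCTG within 50 bp. The strongest MDL-1 peak of any srh gene lay not upstream but inside srh-2, where it ranked 18 of the 3870. All intervals cover counting error only, and neighbouring genes that share a peak are not independent.

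Each of the 7 summits is shown with the 50 bases to either side, the stretch that was searched for E-boxes. They are read 5' to 3' on the strand of the srh gene in ce11, from the RefSeq copy of WBcel235, with any E-box of the general form CANNTG in capitals.
srh-17, chrV:14660754-14660854, plus strand: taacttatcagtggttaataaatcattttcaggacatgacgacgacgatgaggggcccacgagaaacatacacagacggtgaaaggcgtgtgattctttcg
srh-2, chrV:728058-728158, plus strand: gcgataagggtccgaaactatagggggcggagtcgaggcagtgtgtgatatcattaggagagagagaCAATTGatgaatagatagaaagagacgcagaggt
srh-16, chrV:12291756-12291856, plus strand: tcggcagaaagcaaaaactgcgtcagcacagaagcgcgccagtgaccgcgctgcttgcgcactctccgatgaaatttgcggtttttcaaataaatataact
srh-89, chrV:7465647-7465747, minus strand: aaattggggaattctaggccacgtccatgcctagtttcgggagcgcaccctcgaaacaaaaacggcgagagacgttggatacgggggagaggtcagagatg
srh-282, chrIV:274301-274401, minus strand: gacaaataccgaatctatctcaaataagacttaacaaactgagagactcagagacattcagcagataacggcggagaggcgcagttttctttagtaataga
srh-76, chrV:5832948-5833048, plus strand: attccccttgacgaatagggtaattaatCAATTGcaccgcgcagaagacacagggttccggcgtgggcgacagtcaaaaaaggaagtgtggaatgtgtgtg
srh-269, chrV:16592300-16592400, minus strand: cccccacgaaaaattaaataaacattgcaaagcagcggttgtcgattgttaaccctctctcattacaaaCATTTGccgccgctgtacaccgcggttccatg

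Capitals appear in the srh-2, srh-76 and srh-269 stretches only, with 1 E-box each. That of srh-2 and that of srh-76 are both CAATTG, and CATTTG is that of the srh-269 stretch. An E-box match of this general form on either strand was present in these 3 of 7, against 49.9% of all IDR peaks. CACGTG was in 0 of 7, against 13.2% of all IDR peaks and 10.2% of those in any promoter window. The purine repeat GAGAGA, read on both strands, was in 4 of 7 and in 28.9% of all IDR peaks. TGCGCA was in the srh-16 stretch and TGATAA in the srh-17 stretch, against 4.11% and 9.69% of all IDR peaks.

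srh-17 (WBGene00005242) had the highest promoter score of the family. Its summit lay at chromosome V, position 14660804, 501 bp upstream of the 5' end, with an authors' pooled score of 131 and a pooled rank of 487. Replicate 1 placed it at rank 506 and replicate 2 at rank 698, so it stood high in both. No other protein-coding promoter window held this summit. The next nearest 5' end was that of C47E8.9, 2502 bp away, and the gene upstream, the mitochondrial carrier gene slc-25A29, began 3129 bp from srh-17. The srh-17 window did hold a CACGTG, centred 718 bp upstream of the 5' end, away from the summit.

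srh-76 (WBGene00005297) was the other member whose summit lay in no other protein-coding window and near no RNA gene. The summit was at chromosome V, position 5832998, 833 bp upstream, with a score of 54.7 and a pooled rank of 2124. Its ranks of 2514 and 2676 in replicates 1 and 2 were close. The gene upstream on the same strand is let-418, which encodes a Mi-2 chromatin remodelling ATPase. let-418 ends 999 bp before srh-76, and the summit lay 167 bp beyond that end, nearer to the end of let-418 than to the start of srh-76.

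srh-16 (WBGene00005241) and srh-2 (WBGene00005228) had the summits closest to their own 5' ends among the 7. The srh-16 summit, at chromosome V, position 12291806, lay 55 bp upstream of srh-16. It had a score of 95.5, a pooled rank of 886, and ranks of 1337 in replicate 1 and 614 in replicate 2. The srh-2 summit, at chromosome V, position 728108, lay 193 bp upstream of srh-2 but 104 bp from icl-1, which encodes the bifunctional enzyme of the glyoxylate cycle. The gap between these genes is 296 bp, and the short non-coding RNA gene C05E4.16 starts 123 bp from the summit. The srh-2 score was 121, its pooled rank 569, and its ranks 532 and 705. Which gene of a divergent promoter a peak acts on cannot be read from these lists.

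At srh-89 and srh-282 the summit stood far upstream of the srh gene and close to a divergent neighbour. The srh-89 (WBGene00005310) summit, at chromosome V, position 7465697, was 901 bp upstream of srh-89 and 187 bp from F25E5.1. It scored 67.5 (pooled rank 1579, replicate ranks 1310 and 2258). The srh-282 (WBGene00005487) summit, at chromosome IV, position 274351, was 952 bp upstream of srh-282 and 69 bp from sma-10, a gene for a membrane protein of BMP signalling. It scored 64.7 (pooled rank 1693), and replicate 1 placed it higher than replicate 2, at 1505 against 3854. The microRNA gene cel-mir-269 lay 451 bp away, between the summit and srh-282.

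srh-269 (WBGene00005475) had the lowest score of the 7, 40.3, with a pooled rank of 3083. Its summit, at chromosome V, position 16592350, lay 308 bp upstream of srh-269 but 42 bp from the 5' end of a transfer RNA gene, WBGene00014499, and the non-coding RNA gene T03E6.13 also lay within 200 bp. The replicates ranked this peak further apart than any other of the 7, at 5228 in replicate 1 and 1981 in replicate 2. Their summits lay 31 and 88 bp from the pooled one, inside the 100 bp allowed for a match. Of the 31-base words in the pooled peak, 83.6% were unique in the genome, against 100% in each other peak of the 7. The gene upstream on the same strand is cpl-1, which encodes a cathepsin L protease. Setting aside summits nearer to another protein-coding 5' end left srh-17, srh-16, srh-76 and srh-269, 4 of 220 or 1.82%, against 9.62% of all genes. Letting RNA genes compete as well left 3 (1.36%), without srh-269, against 8.22% of all genes.

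**Figure D1:**
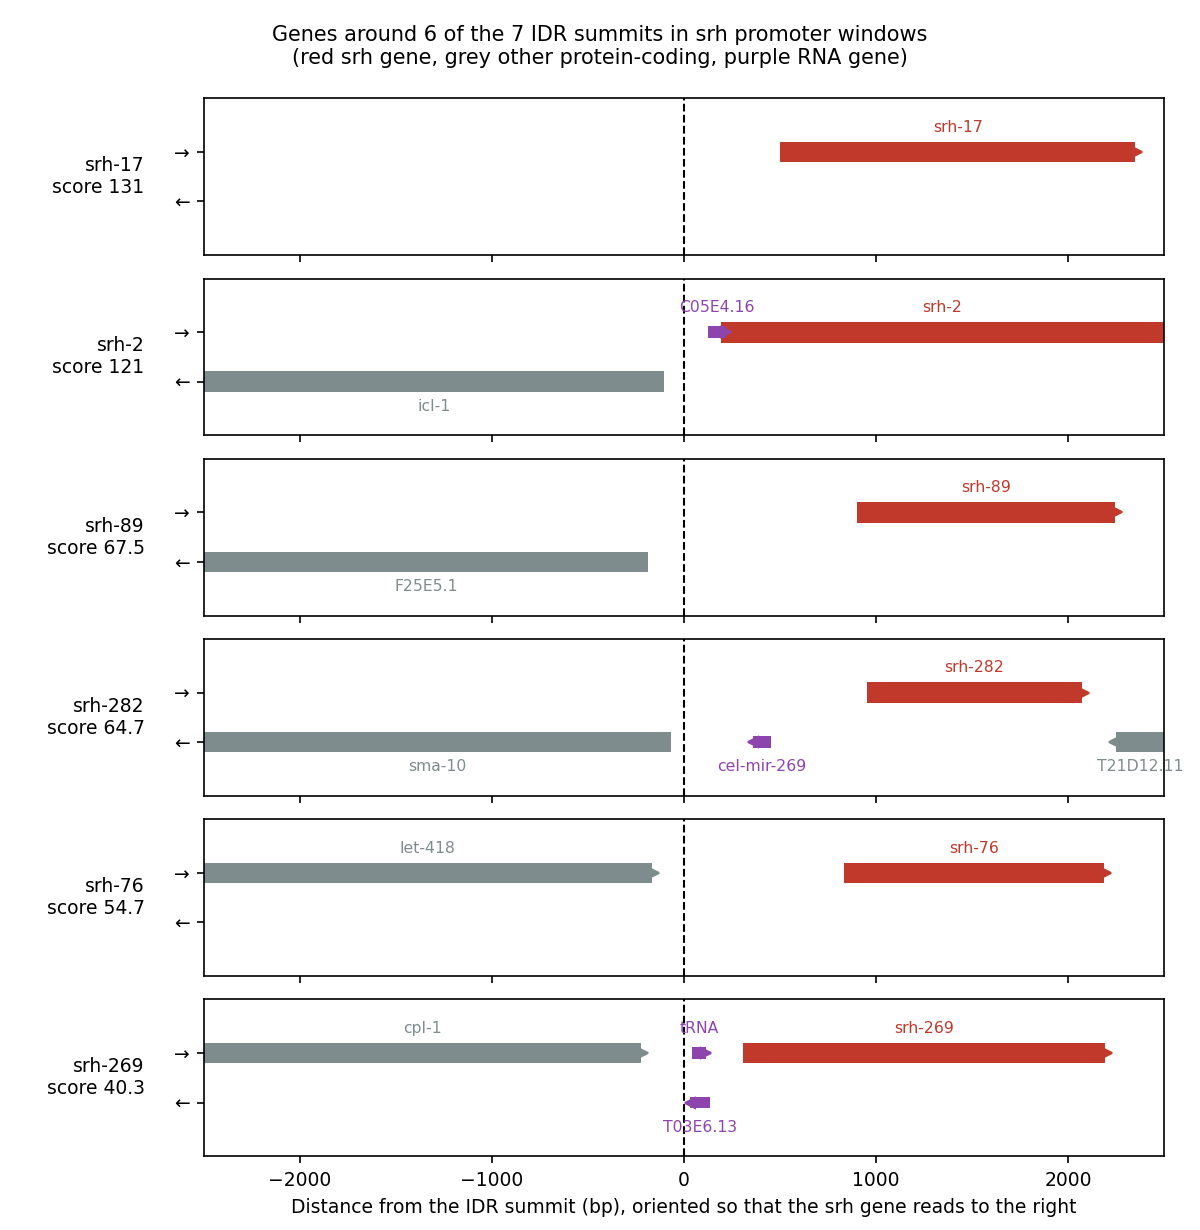
Genes around 6 of the 7 IDR summits in srh promoter windows (all but that of srh-16), 1 panel a summit, ordered by the authors' pooled score; the horizontal axis is distance from the summit in bp, oriented so that the srh gene (red) reads to the right, with other protein-coding genes in grey and RNA genes in purple. The srh-17 summit has no other gene drawn beside it, whereas those of srh-2, srh-89 and srh-282 lie beside the start of a divergent gene and that of srh-269 beside a transfer RNA gene.

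The body of srh-2 held 3 more IDR summits, and no other member had an IDR summit in its body. That is 1 of 220 members (0.455%), against 4.39% of all genes. All 3 lay in sequence annotated as intron. The highest, at chromosome V, position 731543, had a score of 429.5 and ranked 18 in the pooled list, 16 in replicate 1 and 26 in replicate 2. The next, at position 729328, scored 127 and ranked 518, with replicate ranks of 362 and 1082. The last, at position 730479, scored 87.1 and ranked 1033, with replicate ranks of 1063 and 1054. srh-2 is annotated with 13 transcripts from 7 different starts, of which 11 transcripts start inside the gene, and at 6011 bp it is long for a family with a median gene length of 1557.5 bp. The highest summit lay 103 bp upstream of the start of 5 of these transcripts and 140 bp downstream of another, so that it is a promoter summit for the internal starts though not for the gene's 5' end. Together with the upstream summit, srh-2 thus held 4 IDR summits.

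The summit at 730479 was the only IDR summit of an srh body or promoter window with CACGTG within 50 bp, centred 19 bp upstream of it. The summit lay 924 bp upstream of an internal start. Its sequence is shown on the srh-2 strand, with each CANNTG in capitals, as the instance of the MDL-1 E-box at a called srh summit.
srh-2 intron, chrV:730429-730529, plus strand: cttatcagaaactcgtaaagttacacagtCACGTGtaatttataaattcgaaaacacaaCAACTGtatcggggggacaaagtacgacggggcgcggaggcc

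Below the IDR list, srh promoters were also sparsely covered. The pooled relaxed list, which reaches down into background, had a summit in the window of 36 members (16.4%, exact interval 11.7% to 21.9%), against 40.9% of all genes. The relaxed list of replicate 1 had one at 32 members (14.5%) against 42.1% of all genes, and that of replicate 2 at 44 members (20.0%) against 40.2%. Summits of both replicates within 100 bp of each other were found at 9 members (4.09%), against 20.7% of all genes. No summit of any relaxed list lay in the windows of 151 of the 220 members, and the same count over all genes is not given here. A relaxed list ends at 30000 peaks, so a missing peak is only below that end.

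The 9 members with both replicates were the 7 above, srh-99 and srh-178. srh-99 (WBGene00005318) had a pooled score of 16.8 at chromosome II, position 3717250, 695 bp upstream, with replicate ranks of 10565 and 9242. Its summit lay 11 bp from the F-box gene fbxc-52. srh-178 (WBGene00005393) had a score of 13.9 at chromosome V, position 18481297, 966 bp upstream, in a coding exon of Y51A2D.18, with replicate ranks of 12220 and 16242. srh-2 had a second summit of this kind, at position 727492 in a coding exon of icl-1, with a score of 31.8 just under the lowest IDR score of 32.7. The other pooled summits of srh windows were low, and 26 of the 33 gene and summit pairs below the IDR list scored under 10.

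**Figure D2:**
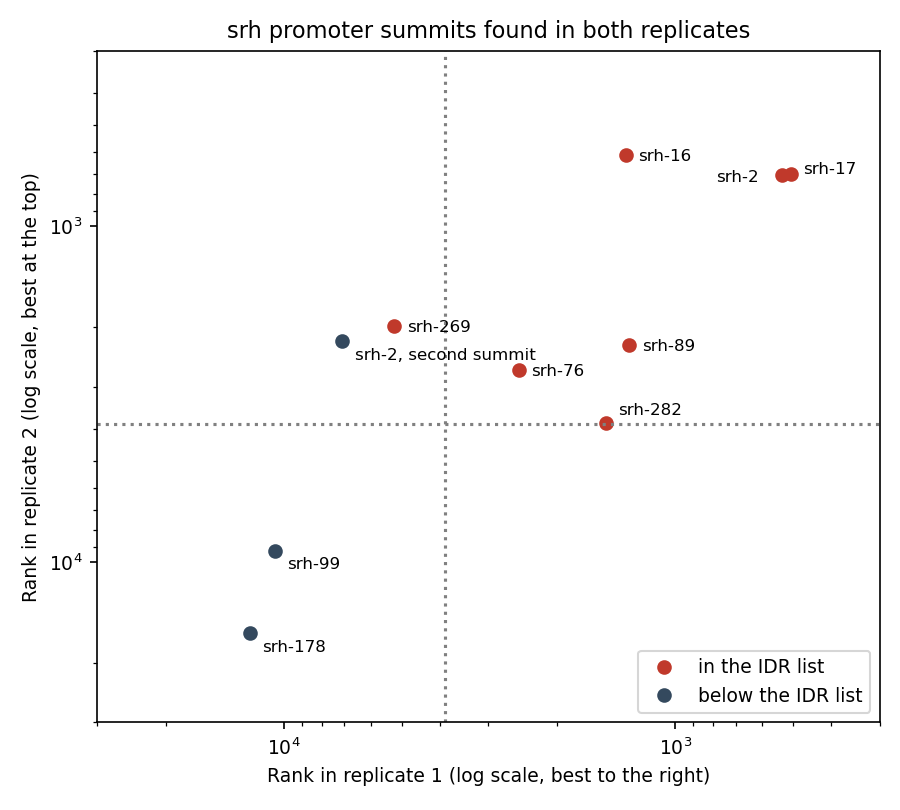
Rank in replicate 1 (horizontal) against rank in replicate 2 (vertical), both on log scales with the best ranks to the upper right, of srh promoter summits that both replicates have within 100 bp; dotted lines mark rank 3870, the length of the IDR list. The 7 IDR summits (red) rank between 506 and 5228, and srh-99 and srh-178 lie at rank 9242 or further down in both.

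Few of the weak srh summits were present in both replicates. All 7 IDR summits were in both replicates, as were 96.1% of the 1982 IDR summits in any protein-coding promoter window. Of 32 distinct srh summits below the IDR list, 3 (9.38%) were in both and 11 (34.4%) in neither, against 25% and 17.1% of 6512 such summits over all protein-coding promoters. Median scores were 7.95 and 10.2, and no test was made of these differences. Over all pooled summits in srh windows, 24 gene and summit pairs were intergenic, 11 fell in a coding exon, 4 in an intron and 1 in an untranslated exon. The srh gene had the nearest protein-coding 5' end in 31 of the 40 pairs.

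**Figure D3:**
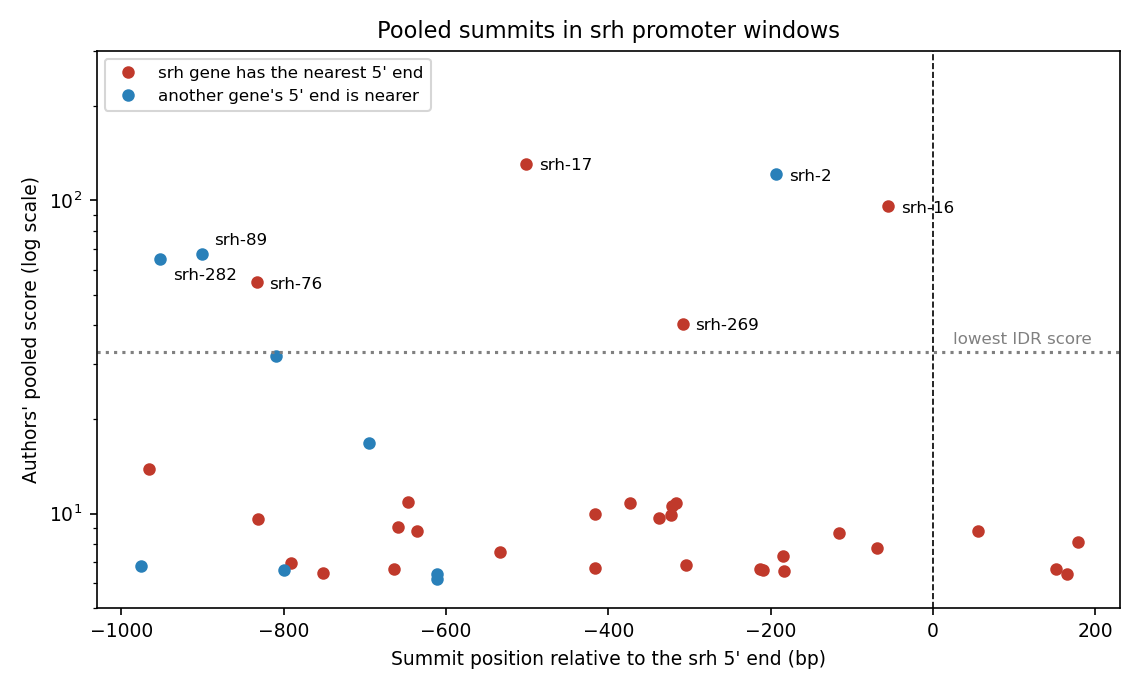
Authors' pooled score (vertical, log scale) of each pooled summit in an srh promoter window against its position from the 5' end in bp (horizontal); colours show whether the srh gene has the nearest protein-coding 5' end, and the dotted line is the lowest IDR score. Most summits score under 10 with the srh gene nearest, and 3 of the 7 above the line lie nearer to another gene.

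Pooled summits in gene bodies were few and, outside srh-2, low. One or more fell in the body of srh-2 and of 35 other members, together 16.4%, against 40% of all genes. srh genes are also shorter, with a median of 1557.5 bp against 2027 bp, and the part of length in this difference was not tested. Apart from srh-2, the highest body score was 14.5, at srh-213.

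The other chemoreceptor families as a whole also had few summits. Over their 1089 genes, 5 (0.459%) had an IDR promoter summit and 121 (11.1%) a pooled relaxed one. Genes without a chemoreceptor symbol had them at 13.7% and 42.9%. Single families varied: of the 9 srr genes 1 (11.1%) had an IDR and 6 (66.7%) a pooled summit, the single srn gene had a pooled one, and srab genes stood at 34.8% for pooled summits. On chromosome V, where most members lie, srh genes stood at 3.33% and 15.6% and genes without a chemoreceptor symbol at 10.4% and 36.4%. The median distance from a 5' end to the nearest IDR summit was 35.1 kb for srh genes and 10.6 kb for all genes, and on V 42.6 kb against 14.9 kb for genes without a chemoreceptor symbol. srh-85 was farthest from any IDR summit, at 293 kb.

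**Figure D4:**
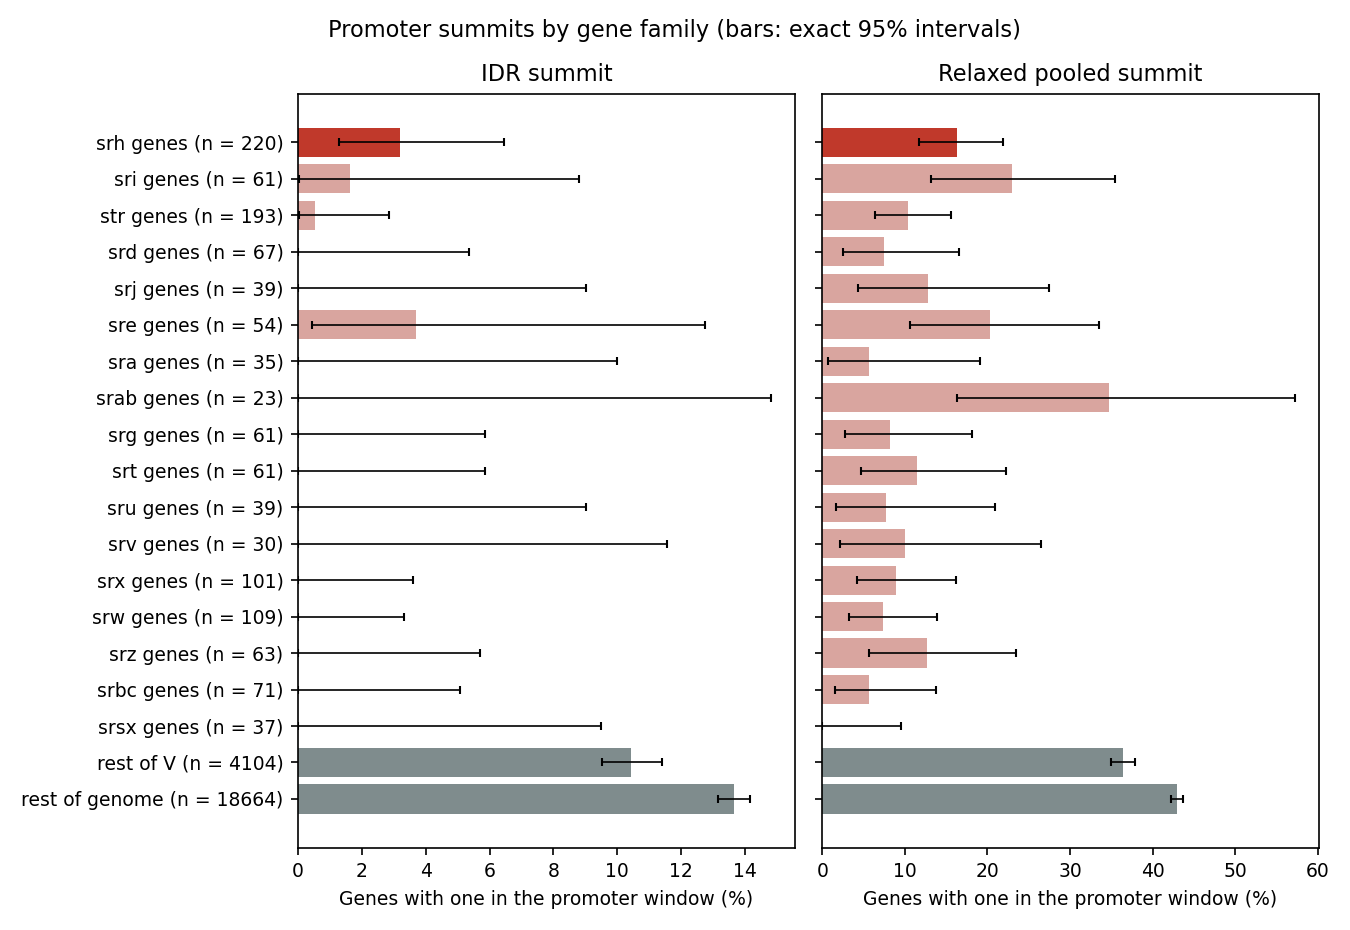
Percentage of genes with an IDR summit (left) or a pooled relaxed summit (right) in the promoter window, by chemoreceptor family (srb, srm, srn, srr and srxa not drawn) and for genes without a chemoreceptor symbol on chromosome V and in the whole genome; bars are percentages and lines exact 95% intervals for counting error. The srh bars, at 3.18% and 16.4%, lie below those of the rest of the genome, at 13.7% and 42.9%.

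The few called genes of other families were sri-5 (score 88.1), sre-23 (84.7), sre-1 (37.0), srr-10 (77.5) and str-7 (33.2). The summits of sre-1, srr-10 and str-7 were nearer to B0495.9, to the clathrin light chain gene clic-1 and to the cystathionine gamma-lyase gene cth-1. The str-7 summit ranked 2235 in replicate 1 and had no match in the list of replicate 2. Of the genes that act downstream of chemoreceptors, 4 of 41 signalling genes (9.76%) had an IDR promoter summit, near the 12.8% of all genes. These were egl-30, the Gq alpha subunit gene (pooled rank 152), eat-16, which encodes a regulator of G protein signalling (81.7), tax-6, the calcineurin A gene (73.6), and gpa-7, another G alpha gene (58.8). Of 12 genes known to set chemosensory fate or receptor expression, the kinase gene kin-29 (116) and the transcription factor gene mef-2 (36.1) had one (16.7%).

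The spacing and base content of srh windows were near those of other genes, while their gene models and uniqueness differed. The gap to the next gene upstream had a median of 945.5 bp, against 937 bp for all genes, and median GC content was 34.1% against 35.0%. Of the members, 137 have another srh 5' end within 10 kb, and the gene upstream is itself an srh gene for 77. At 171 members (77.7%) the annotated 5' end is the coding start, against 23.5% of all genes, and the annotation then gives no untranslated leader. In 45 srh windows at most 90% of 31-base words were unique in the genome, and these had 0 IDR and 1 pooled summit (2.22%), against 5.36% and 23.3% of all windows with as little unique sequence. In the 175 windows above 90%, 7 (4%) had an IDR summit and 35 (20%) a pooled one, against 14.1% and 43.9% of all such windows. The srh shares were thus also under those of all genes among windows with mostly unique sequence.

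CACCTG was common just upstream of srh genes. The 100 bases before the 5' end of 4 of the members with the longer ADL E-box there are shown, low-numbered examples, on the gene's strand in ce11 from RefSeq, with that E-box in capitals.
srh-40, chrIII:6610722-6610821, plus strand: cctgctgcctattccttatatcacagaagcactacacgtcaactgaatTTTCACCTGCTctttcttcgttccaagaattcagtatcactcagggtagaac
srh-41, chrII:14287378-14287477, minus strand: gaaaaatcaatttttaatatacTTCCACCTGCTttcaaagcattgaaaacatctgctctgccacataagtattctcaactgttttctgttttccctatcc
srh-75, chrV:11057144-11057243, minus strand: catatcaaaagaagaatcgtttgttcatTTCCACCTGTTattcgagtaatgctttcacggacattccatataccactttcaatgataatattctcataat
srh-95, chrV:16246779-16246878, plus strand: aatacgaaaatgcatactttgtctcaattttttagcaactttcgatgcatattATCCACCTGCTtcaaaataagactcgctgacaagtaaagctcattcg

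In these 4 the centre of the E-box lay 47, 73, 67 and 42 bp upstream of the annotated end, and each has the core CACCTG. Read on both strands, that core was in 122 srh windows (55.5%) against 27.2% of all protein-coding windows. The ADL E-box, whose core can be CACCTG or CACGTG, was in 58 (26.4%) against 5.12%. Within 100 bp upstream, CACCTG was present at 64 members (29.1%) against 3.22% of all genes, and the ADL E-box at 36 (16.4%) against 1.05%. The palindrome CACGTG did not share this pattern: it was in 36 windows (16.4%) against 18.4%, and within 100 bp upstream at 1 member, srh-79, or 0.455% against 2.52%.

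**Figure D5:**
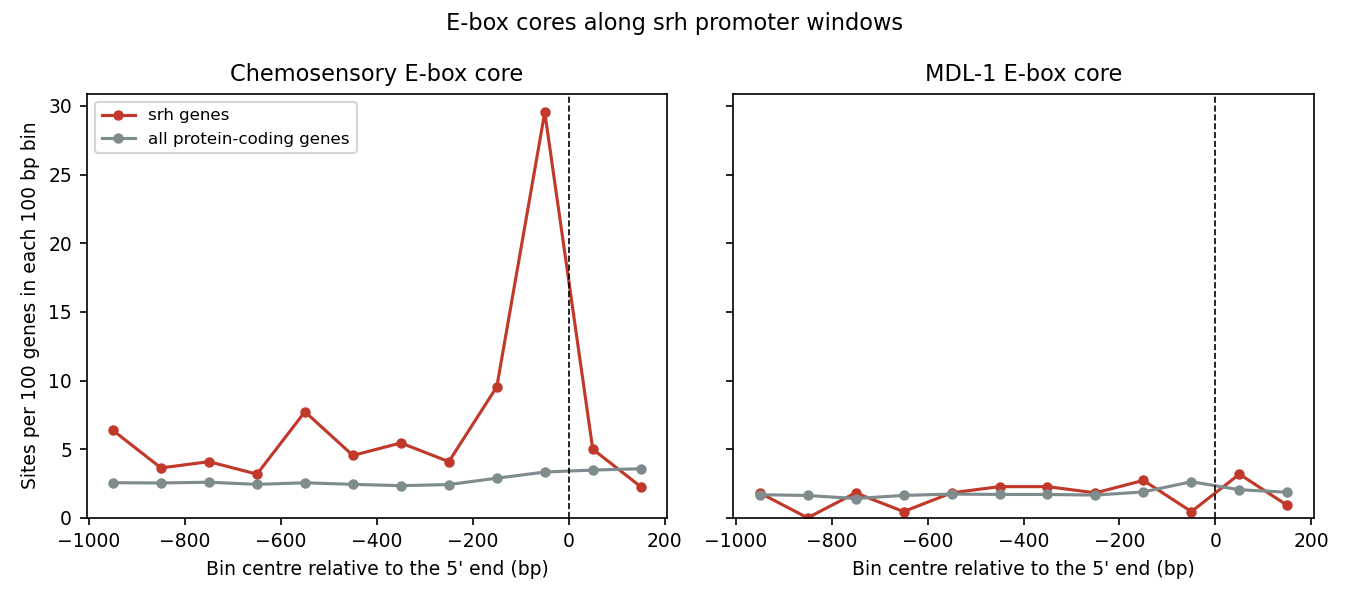
Number of E-box cores per 100 genes in 100 bp bins along the promoter window (horizontal, bin centre from the 5' end in bp), for the core CACCTG (left) and the core CACGTG (right), in srh genes (red) and all protein-coding genes (grey). In the last bin before the 5' end CACCTG reaches 29.5 per 100 srh genes against 3.33 per 100 for all genes.

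Few MDL-1 summits lay near these E-boxes. None of the 64 members with CACCTG within 100 bp upstream had an IDR summit, while 7 of the other 156 (4.49%) did, and a pooled summit was present at 11 (17.2%) and 25 (16%). Over all genes, IDR summits were likewise less frequent with CACCTG within 100 bp upstream, at 5.9% of 644 genes against 13% of the rest. Pooled summits stood at 28.1% against 41.3%. Among genes without a chemoreceptor symbol, the IDR shares with and without it were 8.2% of 451 and 13.8% of 18213. In the other chemoreceptor families they were 0.775% of 129 and 0.417% of 960, so the lower share was not seen there. These differences were not tested. Of the 36 windows with CACGTG, 2 (5.56%) had an IDR summit, those of srh-17 and srh-2, and 8 (22.2%) a pooled one, against 17.8% and 45.7% of all genes whose window holds CACGTG. In 0 of these 36 did a pooled summit lie within 50 bp of the site, and the nearest was 72 bp away, whereas 12.7% of all such windows had one that close. For CACCTG, 3 of 122 srh windows (2.46%) had a pooled summit within 50 bp, against 5.53% of all windows with that core. They were those of srh-178 and of srh-181 and srh-182, which share a summit with a score of 6.61. The srh-178 stretch is shown in the same way, with CACCTG in capitals, as the highest-scoring of these, although it lies in the coding exon named above and not in intergenic sequence.
srh-178, chrV:18481247-18481347, minus strand: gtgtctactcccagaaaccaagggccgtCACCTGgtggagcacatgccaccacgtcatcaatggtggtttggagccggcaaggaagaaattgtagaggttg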

How the data were processed

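ChIP-seq peaks from 2 biological replicates of 1 group were used as the authors' deposited lists in ce11, and each list gives a position, a summit and a score per peak. The score is the authors' own value per peak, with no scale stated, so lists were compared by rank. The IDR list was exactly the 3870 highest peaks of the pooled list. The aligner, the caller, the IDR threshold and depth were not given in the sources used here. Fragments of 150 to 350 bp were selected, per the labels. Lists in ce10 were not used here.

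Promoter windows, neighbours and exons came from Ensembl release 115 and sequences from RefSeq, both WBcel235, which is the sequence of ce11. Summits were converted to 1-based positions. A replicate had a peak where its summit lay within 100 bp. Uniqueness was counted in 31-base words. Counting used Python 3.11, pandas 2.3.3 and numpy 2.4.6, and exact Clopper-Pearson 95% intervals scipy 1.17.1. The counting steps were checked on simulated data. No test was made, and no p-value is given.

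The members and gene lists were chosen with earlier results of these data known. Genes were named by rule: every srh gene with an IDR promoter summit and its neighbours, up to 12 more that both replicates had, every one with CACGTG near a pooled summit, signalling and regulator genes with an IDR summit, and up to 2 per other family. srh-2's internal peaks, srh-85, srh-213, srh-79, srh-181 and srh-182 were chosen after their values were seen. Of the neighbouring genes, 1 is not reported here. The signalling entry ttx-4 matched no gene. Alternatives covered peak sets, windows, 5' ends and single replicates.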

Additional observations from a re-analysis of the deposited data

How the results depend on the processing

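No paired analysis was possible because there is 1 group and no comparison between groups. With a replicate left out, the 3870 highest relaxed peaks of the other stood in for the IDR list. Replicate 1 alone gave 6 srh genes with a promoter summit (2.73%, against 12.3% of all genes). Replicate 2 alone gave 7 (3.18% against 12.4%). The srh genes that also own it as the nearest 5' end were 3 (1.36% against 9.36%) and 4 (1.82% against 9.32%). A window of 500 bp upstream to 100 bp downstream gave 3 srh genes with an IDR summit. It gave 18 with a pooled relaxed summit (8.18%, against 30% of all genes) and 23 with CACGTG (10.5% against 10.4%). One of 2000 bp upstream to 200 bp downstream gave 64 with CACGTG (29.1% against 30.4%). The 15000 highest pooled peaks left 13 srh genes with a summit (5.91%), against 28.5% of all genes. Using every transcript 5' end, an alternative chosen after seeing the data, gave CACGTG at 1 of 9 srh IDR peaks, that of srh-2. The main window gave 0 of 7, and the share over all IDR peaks was 13.2%. The narrower window holds less sequence, and whether that accounts for its lower counts was not tested. It gave an IDR summit at 1.36% of srh genes and 10.1% of all genes, against 3.18% and 12.8% in the main window. Under each peak set and window run, the srh share of genes with a summit stayed under that of all genes. Depth is unknown, and lists that end at 30000 peaks cannot show weaker binding.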

Other observations

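CACCTG within the promoter window was more frequent than in srh genes (55.5%) in 3 other chemoreceptor families: 77% of 61 sri genes, 64.8% of 54 sre genes and 87.3% of 63 srz genes, against 27.2% of all genes. The ADL E-box was in 42.6%, 38.9% and 58.7% of them. Families between srh and all genes included srm (50%), srb (41.7%), srg (37.7%) and srw (36.7%). IDR promoter summits were found at 1 sri, 2 sre and 0 srz genes.

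Along chromosome V, split into equal left, middle and right segments, 54 srh genes lay in the left and 25 in the middle segment, and the remaining members of the chromosome in the right one. Each segment held 2 of the 6 chromosome V members with an IDR promoter summit. Genes without a chemoreceptor symbol had an IDR promoter summit at 10.6%, 13.6% and 6.47% in the left, middle and right segments.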
